A study of Homo sapiens with 2 samples.

Results

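The chromatin sites described here are the mTOR peaks at promoters of protein-coding genes. They are the lines of the deposited peak table whose annotation is the promoter class of the annotation program HOMER (promoter-TSS) and whose gene type is protein-coding, and neither criterion uses the strength of a peak. They numbered 2477 of 21440 peaks, 11.6% (exact Clopper-Pearson 95% interval 11.1 to 12%), and carried the names of 2405 genes. The peaks came from chromatin immunoprecipitation and sequencing (ChIP-seq) with an antibody to mTOR in MDA-MB-231 cells, a widely used line from a human triple-negative breast tumour, grown in DMEM with serum and antibiotics. There was 1 mTOR library and 1 library of input chromatin, neither of them replicated, so intervals below cover counting error only and no comparison has a test. The peak list carries no read counts and its depth is unknown. Its whole-number score is the authors' own value on an unstated scale, and it serves here only to rank peaks within the list.

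mTOR is a protein kinase that couples cell growth and protein synthesis to the supply of nutrients and growth factors. It works mainly at lysosomes and in the cytoplasm, and a nuclear pool has been found on chromatin, at genes read by RNA polymerases I, II and III. ChIP records DNA cross-linked to mTOR directly or through other proteins and does not separate these. The series is about a nuclear complex of mTOR with PML and RONIN. RONIN, encoded by THAP11, is a zinc finger protein that binds a composite element near start sites which the zinc finger factor ZNF143 also binds.

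Only promoters with a match inside the peak to a motif searched below could be shown, so having a match was a condition of the choice. Promoters of 4 of the 6 highest-scoring genes, without AP2S1 and POR, are shown as examples of sequence under strong peaks. Each is the 200 bases that end 1 base before the RefSeq start site on GRCh38.p14, the same assembly as the files' hg38, read 5′ to 3′ on the strand of the gene. Capitals mark matches on either strand to the GC box, ETS core and E-box searched below: GC boxes in NPAS4 and KMT5B, an ETS core in ITPRIP, and 1 E-box with 4 GC boxes in MNT. They lie at chr11:66420804-66421003 on the plus strand for NPAS4, and on the minus strand at chr11:68213649-68213848 for KMT5B, chr10:104338466-104338665 for ITPRIP and chr17:2401061-2401260 for MNT.
NPAS4: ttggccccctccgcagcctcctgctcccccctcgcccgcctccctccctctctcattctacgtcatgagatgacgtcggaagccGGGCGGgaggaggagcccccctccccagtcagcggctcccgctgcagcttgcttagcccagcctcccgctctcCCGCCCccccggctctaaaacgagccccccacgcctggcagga
KMT5B: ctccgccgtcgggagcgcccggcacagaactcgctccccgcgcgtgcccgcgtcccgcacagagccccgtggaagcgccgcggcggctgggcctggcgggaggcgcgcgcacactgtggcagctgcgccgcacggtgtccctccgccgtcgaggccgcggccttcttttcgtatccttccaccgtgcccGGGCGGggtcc
ITPRIP: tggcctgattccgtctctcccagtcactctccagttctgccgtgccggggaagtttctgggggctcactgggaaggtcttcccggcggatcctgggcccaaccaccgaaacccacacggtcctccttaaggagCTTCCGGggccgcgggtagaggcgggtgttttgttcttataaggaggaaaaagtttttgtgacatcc
MNT: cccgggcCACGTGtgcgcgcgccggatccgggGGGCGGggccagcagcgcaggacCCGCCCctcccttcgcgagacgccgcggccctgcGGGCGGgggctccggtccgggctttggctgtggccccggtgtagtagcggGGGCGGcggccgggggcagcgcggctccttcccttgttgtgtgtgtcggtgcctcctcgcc

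The composite element is shown for the 10 highest-scoring promoter peaks that hold it. PEMT, FEM1A, MDH1, FCSK and PAFAH2 had 2 matches each, and only the match nearer the peak centre is printed. Capitals mark ACTACA and, 2 bases further on, TCCC. Each line is 25 bases of RefSeq GRCh38.p14 on the strand of the motif.
PEMT: gggaACTACAttTCCCagaaggccg
FEM1A: gaggACTACAatTCCCgtcatgcag
UTP11: ggaaACTACActTCCCagaagcagc
MDH1: gtaaACTACAgtTCCCagagagcgc
FCSK: cgaaACTACAacTCCCagaggaccg
GTF2H4: tctgACTACAaaTCCCgaaaggcac
PAFAH2: taaaACTACAccTCCCagagttcta
ZNF628: gagaACTACAacTCCCaggatgccg
ADSS2: tcggACTACAaaTCCCagcatgcaa
WNK1: gaaaACTACAacTCCCacgaggcat

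The printed sites lay from -229 to -58 bp of their start sites and 6 to 135 bp from the peak centre, all of them inside the peak. Closeness to the centre is partly a result of printing the nearer match. The second matches, also inside the peak, lay from -133 to -41 bp of the start and 68 to 124 bp from the centre. In MDH1, the gene of cytosolic malate dehydrogenase, the site (chr2:63588891-63588915, plus strand) was 6 bp from the centre of a peak with score 397. In PEMT, which makes phosphatidylcholine from phosphatidylethanolamine, it was 48 bp from the centre (chr17:17591751-17591775, minus strand) of the highest-scoring peak with the element, at 805. FEM1A, a substrate receptor of a ubiquitin ligase, had its site at chr19:4791491-4791515 (minus strand) and a score of 600. UTP11, which takes part in making the small ribosomal subunit, had a score of 441 and a site at chr1:38012591-38012615 (plus strand). The other 6 sites belonged to peaks with scores of 218 to 371: FCSK is fucose kinase, GTF2H4 a subunit of the repair and transcription factor TFIIH, PAFAH2 an enzyme that breaks down platelet-activating factor, ADSS2 an enzyme of AMP synthesis, WNK1 a kinase that controls ion transport, and ZNF628 a zinc finger protein.

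Centres of the promoter peaks gathered just upstream of start sites. The median centre was 118 bp upstream (-118 bp, 95% interval -129 to -107 bp), with quartiles at -300 and 2 bp and extremes at -999 and 850 bp. Centres were upstream of the start in 1839 peaks or 74.2% (72.5 to 76%). The promoter class itself reaches 1000 bp upstream and only 100 bp downstream, so this share and the median are set in part by the class. Over every protein-coding peak centred within 1 kb of the start, the median was -48 bp and 57.8% were upstream. Within 100 bp of the start, where the class is symmetric, 519 centres were upstream and 437 downstream, an upstream share of 54.3% (51.1 to 57.5%). Centres were densest in the last 100 bp before the start, with 21% of peaks there, against 17.6% in the 100 bp after it. Between -250 and -100 bp there were 15.6% per 100 bp, and from -1000 to -750 bp there were 2.05% per 100 bp. The span of the peak included the start site in 1659 peaks, 67% (65.1 to 68.8%).

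**Figure D1:**
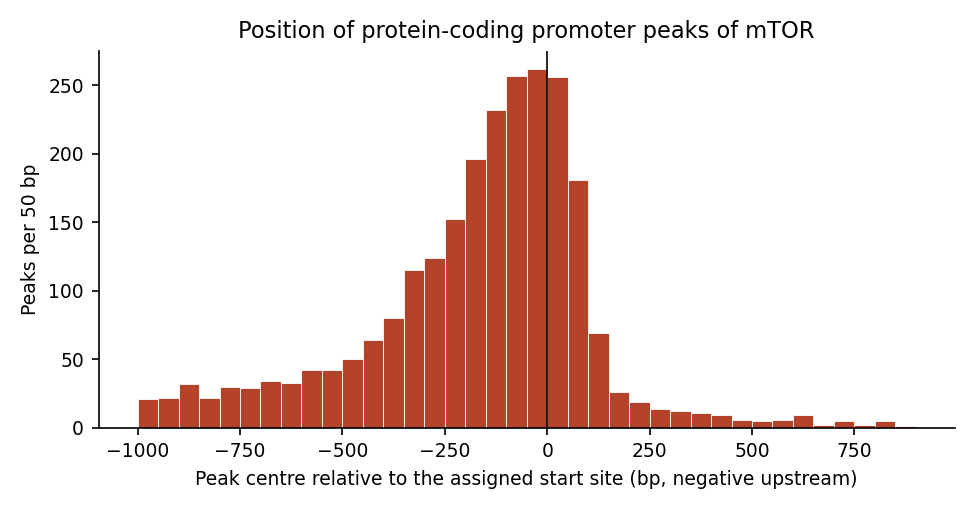
Number of protein-coding promoter peaks of mTOR in 50 bp bins (y axis) by the distance of the peak centre from the assigned start site in bp (x axis, negative upstream). The counts are highest in the 3 bins from -100 to 50 bp, at 256 to 262 peaks each, and fall off more slowly on the upstream side. The promoter class reaches 1000 bp upstream and only 100 bp downstream, so this shape is set in part by the class. Centres beyond 100 bp downstream number 197.

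Of the 2281 peaks of protein-coding genes with a centre from -1000 to 100 bp, 2280 were in the class. Just inside its upstream end lay peaks of PRDM11 at -999 bp with score 23, ANKHD1-EIF4EBP3 at -998 bp with score 51 and RANBP17 at -996 bp with score 260, and just outside lay ANXA2 at -1009 bp with score 85 and RAN at -1010 bp with score 40. At the downstream end ARHGAP29 and TFPT were inside at 100 bp with scores 22 and 324, and CLPP at 101 bp with score 62 and RPL36 at 102 bp with score 85 were outside. Centres more than 100 bp downstream of the named gene's start made up 7.95% of the promoter peaks. Of the 196 of these whose promoter transcript could be looked up, 135 lay in the promoter of a transcript of another gene. The 3 most downstream were UBTD1 at 850 bp, KBTBD6 at 831 bp and NDUFA6 at 826 bp, with scores 33, 29 and 30. Over all promoter peaks the transcript belonged to a gene other than the named one in 286 of 2463, 11.6%.

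Scores of promoter peaks were close to those of the rest of the list. Their median was 60 (57 to 61) with quartiles of 37 and 106, against 61 (59 to 61) with quartiles of 37 and 102 in the 18963 other peaks. Scores above 106 were found in 591 promoter peaks, 23.9% (22.2 to 25.6%), and in 4414 other peaks, 23.3% (22.7 to 23.9%), beside 23.3% of all peaks. The 320 promoter peaks of other gene types had a median of 58.5 (53 to 66). Intervals overlapped in each of these comparisons. Promoter peaks were wider, with a median of 440 bp (428 to 451 bp) against 395 bp (391 to 398 bp) in the other peaks. This width was not particular to protein-coding genes: promoter peaks of other gene types had a median of 449 bp (416 to 478 bp). Peaks of 1000 bp or more made up 6.22% of the protein-coding promoter peaks and 6.37% of the other peaks.

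Higher-scoring promoter peaks were wider and more often reached the start site. Median widths were 359, 392, 458 and 640 bp from the lowest to the highest score quartile, and the start was inside the peak in 52.1%, 64.4%, 72.4% and 80.7%. A wider peak includes a given point more often, and how much of the second series comes with width was not tested. Peaks that included the start had a median score of 69 (64 to 69) and those that did not had 45 (44 to 49). By position, the median score was 66 (61 to 71) for centres in the last 100 bp before the start, 65 (61 to 70) from -250 to -100 bp, 56 (53 to 61) in the first 100 bp after it and 48.5 (44 to 56) from -750 to -500 bp. Score and width had a Spearman rho of 0.48 over the 2477 promoter peaks and 0.55 over the other peaks, and score and absolute distance from the start had -0.07. These are descriptions of peaks from 1 library.

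**Figure D2:**
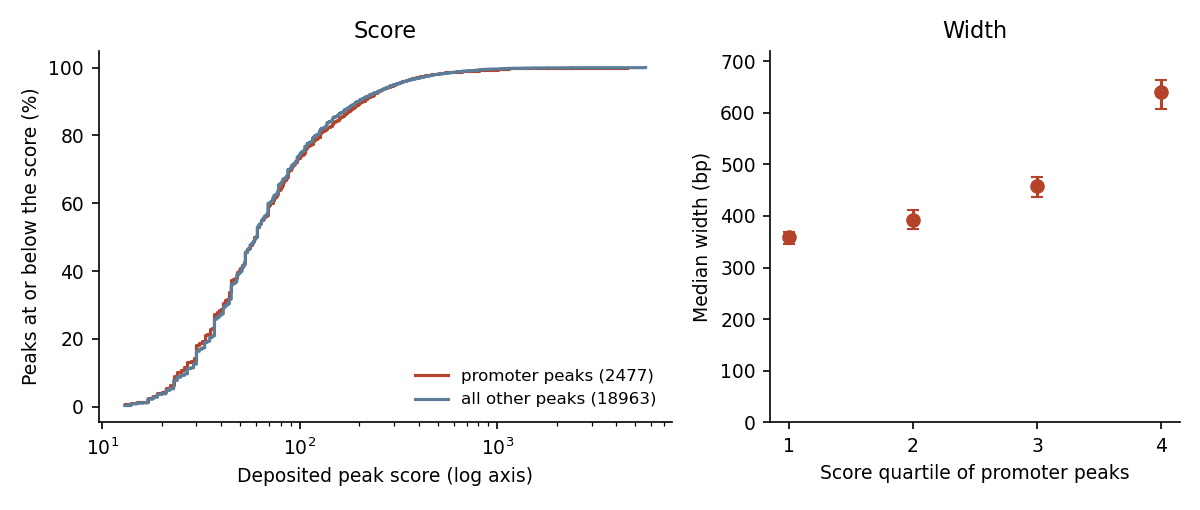
Left, the cumulative share of peaks in percent (y axis) by deposited score on a log axis (x axis) for the 2477 promoter peaks and the 18963 other peaks; the curves nearly coincide. Right, the median width in bp of promoter peaks by score quartile, with exact order-statistic 95% intervals; it is 359 bp in the lowest quartile and 640 bp in the highest.

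The 15 highest scores fell at genes of varied function, and all 15 peaks included the start site. NPAS4, an activity-dependent transcription factor of neurons, led with 4542 and also had the widest peak, at 4531 bp. KMT5B, a histone H4 lysine methyltransferase, had 2407. AP2S1, the small subunit of the AP-2 clathrin adaptor, had 2038, and POR, the electron donor of cytochrome P450 enzymes, had 1692. ITPRIP, named for its interaction with the inositol trisphosphate receptor, had 1259. MNT, a repressor that pairs with MAX at E-boxes, had 1251. A further 8 ran from 1141 to 1011: QRICH1, POC1B of the centriole, the endoplasmic reticulum GTPase ATL3, the mitochondrial chaperonin HSPD1, the ribonuclease angiogenin (ANG), polyubiquitin UBB, the chromodomain protein MORF4L1 and the tight junction protein TJP3. Only 3 promoter peaks exceeded 2000.

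Width and score did not always go together at single promoters. PDE8A, a cyclic AMP phosphodiesterase, had the second widest promoter peak at 2389 bp with a score of 146. VSTM2L followed with 2292 bp and 545, then the neuronal repressor SCRT1 with 2289 bp and 411, and the calcineurin-regulated factor NFATC4 with 2234 bp and 330. At the other end 17 promoter peaks had the lowest score of the list, 13. By name the first 5 of these were ALDH5A1, a mitochondrial enzyme of GABA breakdown, ARFGEF2, BACC1, BLCAP and the RNA helicase DDX39A.

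Sequence around the start could be read for the 1558 promoter peaks, of 1517 genes, whose deposited distance matched a start site of the RefSeq promoter table within 1 bp. The table's windows hold 300 bases, from 250 bases before to 50 after the start. The peak overlapped its window in 1328 of the 1558, 85.2%, so the windows are not all sequence under a peak. The 1558 windows were richer in CpG than start sites in general. Median GC content was 66.3% (66 to 67%) against 62.3% (62.3 to 62.7%) in all 22131 protein-coding start sites of the table, and the observed over expected CpG ratio was 0.88 (0.87 to 0.89) against 0.74 (0.73 to 0.74). Windows with at least 55% GC and a ratio of at least 0.6, called CpG-rich here, made up 85.4% (83.5 to 87.1%) of the promoter peaks and 56.7% (56.1 to 57.4%) of all start sites. The share was 87.1% in the lowest score quartile and 85.7% in the highest, with overlapping intervals. Because nearly all centre labels repeat the promoter class, a CpG island or repeat label at the centre could not be read for these peaks.

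The composite element of RONIN and ZNF143, searched as ACTACA followed after any 2 bases by TCCC on both strands, was present in 124 of the 1558 windows. That is 7.96% (6.66 to 9.42%), against 2.35% (2.16 to 2.56%) of all start sites. Some peaks shared a start site, and counting each of the 1537 start sites once gave 121 or 7.87% (6.58 to 9.33%). At genes without a promoter peak the share was 1.77% (1.59 to 1.97%), a ratio of 4.48. In CpG-rich windows alone the shares were 8.05% (6.64 to 9.64%) at promoter peaks and 2.64% (2.34 to 2.97%) at genes without one, a smaller ratio of 3.05. With 1 start site per protein-coding gene as the background, the share was 2.81% (2.56 to 3.08%). That gave the smallest ratio, 2.83. The share was 6.12% and 5.54% in the 2 lower score quartiles and 10.4% and 9.79% in the 2 higher ones, with overlapping intervals, and 9.85% (8.1 to 11.8%) where the peak included the start. Promoter peaks with the element had a median score of 69 (62 to 83), and those without it had 59 (54 to 61), while the median width was 436 bp in both. These counts describe letters in the window and not binding.

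Of the element's 149 matches 132 lay inside the peak, 88.6%, at a median of -84.5 bp from the start and 87.5 bp from the peak centre. As a base for such shares, a mean of 67.2% of the 300-base window lay inside the peak. The CREB and ATF site, searched with the other motifs below, was similar, at 99 bp from the centre with 86.4% inside the peak, and the E-box (117 bp, 77.4%) and ETS core (124 bp, 77.4%) followed. GC box matches were a median of 182 bp from the centre with 59.9% inside the peak, and CCAAT box matches were 169 bp away with 62.9% inside. More than 1 match was found in 24 of the 124 windows. With each genomic site counted once, the base after TCCC was A in 71.3% (63.2 to 78.6%) of 143 sites, and in 75.7% (70.9 to 80.1%) of 346 sites of genes without a promoter peak.

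ZNF genes, which encode C2H2 zinc finger proteins, had the element at 17 of 60 readable start sites of promoter peaks, each counted once, 28.3% (17.5 to 41.4%), against 10.8% (8.32 to 13.6%) of all ZNF start sites. Outside the ZNF genes the shares were 7.04% (5.79 to 8.47%) at promoter peaks and 2.14% (1.95 to 2.34%) at all start sites. Mitochondrial ribosomal protein genes had it at 5 of 22 readable start sites, 22.7% (7.82 to 45.4%), against 9.41% (4.15 to 17.7%) of that family's start sites, and these intervals overlap. Of the 18 readable windows of cytosolic ribosomal protein genes, 2 had it: RPS26 with score 147 and RPS13 with score 90, named here after their values were seen. The RPS13 site was not fully inside its peak and lay 394 bp from the peak centre.

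Among the parts of the element, ACTACA alone was found in 13.4% (11.7 to 15.1%) of promoter peak windows and 7.93% (7.58 to 8.3%) of all start sites, counts that include the full element. In CpG-rich windows these shares were 12.9% (11.1 to 14.8%) at promoter peaks and 6.24% (5.78 to 6.73%) at genes without one. TCCCA alone was in 59.7% (57.2 to 62.1%) and 61.3% (60.6 to 61.9%), and many copies of the full element contain it. Of the other motifs, the ETS core CCGGAAG was in 23% (20.9 to 25.1%) of promoter peak windows and 12.8% (12.4 to 13.3%) of all start sites. In CpG-rich windows it was in 23.5% (21.2 to 25.8%) at promoter peaks and 17.9% (17.1 to 18.6%) at genes without one. The YY1 core AAGATGGCG was in 5.2% (4.15 to 6.42%) against 2.42% (2.22 to 2.63%), and in CpG-rich windows in 5.11% (3.99 to 6.44%) against 3.3% (2.97 to 3.67%).

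The E-box CACGTG, bound by MYC, MAX and MNT, was in 11.7% (10.2 to 13.4%) of promoter peak windows and 8.34% (7.98 to 8.71%) of all start sites. In CpG-rich windows it was in 12.3% (10.6 to 14.2%) at promoter peaks and 10.4% (9.77 to 11%) at genes without one, with overlapping intervals. The CREB and ATF site TGACGTCA was in 4.04% (3.12 to 5.14%) and 2.26% (2.07 to 2.46%), and in CpG-rich windows in 4.21% (3.2 to 5.43%) and 3.18% (2.85 to 3.53%), again with overlap. The GC box GGGCGG of SP and KLF factors changed side with the background: it was in 73.7% (71.5 to 75.9%) of promoter peak windows and 56.3% (55.6 to 56.9%) of all start sites, but in CpG-rich windows in 79.8% (77.5 to 81.9%) at promoter peaks and 81.7% (81 to 82.5%) at genes without one, with overlapping intervals. The CCAAT box of NF-Y was in 34.4% (32 to 36.8%) and 34.6% (34 to 35.3%), and in CpG-rich windows in 33.4% (30.9 to 36%) and 32.7% (31.8 to 33.6%). The NRF1 palindrome, GCGC on either side of AT, was in 1.67% (1.09 to 2.44%) and 1.5% (1.35 to 1.67%), and in CpG-rich windows in 1.58% (0.98 to 2.4%) at promoter peaks and 2.61% (2.31 to 2.94%) at genes without one. TATAAA was in 5.26% (4.21 to 6.49%) of promoter peak windows and 9.46% (9.08 to 9.86%) of all start sites. This lower share did not hold in CpG-rich windows, with 3.83% (2.87 to 5.01%) at promoter peaks and 3.25% (2.92 to 3.62%) at genes without one. Those intervals overlap. Both strands were searched for each motif. Matches of different motifs may share bases, and all start sites include those at promoter peaks.

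**Figure D3:**
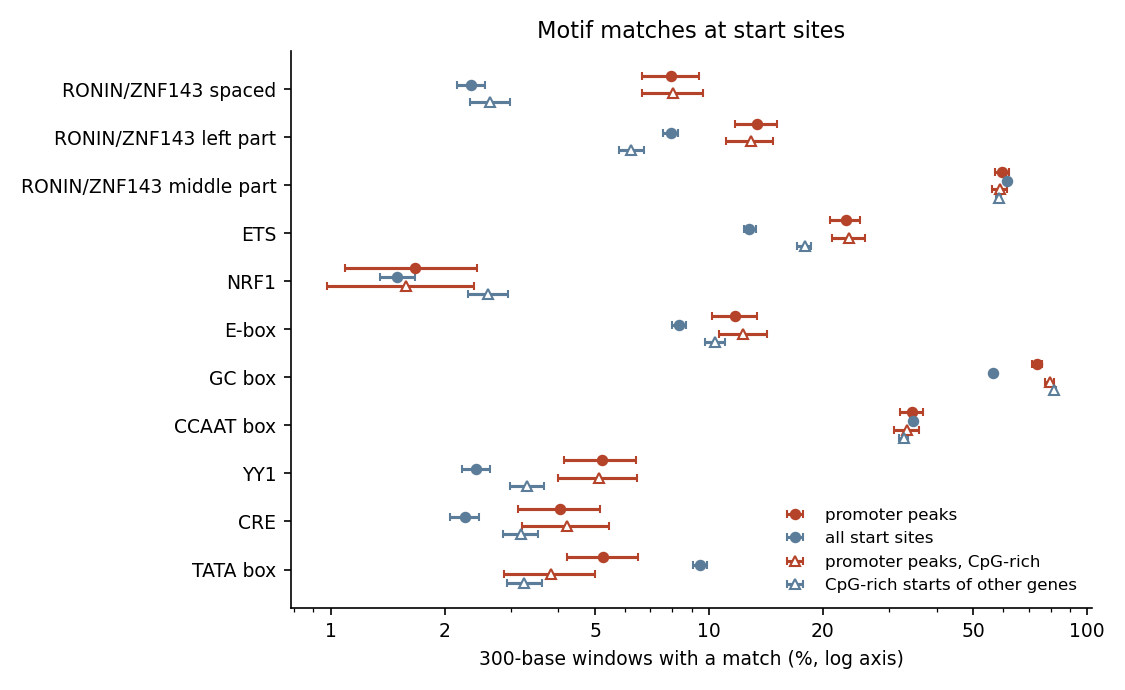
Share of 300-base windows with a motif match in percent on a log axis (x axis) for 11 motifs (y axis), at promoter peaks and at all start sites (filled circles), and at CpG-rich promoter peaks and CpG-rich starts of genes without one (open triangles). Bars are exact 95% intervals; the spaced element of RONIN and ZNF143 is in 7.96% of promoter peak windows and 2.35% of all start sites.

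A minority of these peaks had a neighbouring start site on the other strand. A protein-coding gene with a start within 1 kb in the opposite direction was found for 208 of the 1558, 13.4% (11.7 to 15.1%), against 2292 of 22131 start sites, 10.4% (9.96 to 10.8%). For 99 of the 208, 47.6%, the peak included both starts, so it cannot be assigned to either gene of the pair. Median scores were 61 (53 to 69) with such a neighbour and 59 (56 to 61) without. The share with such a neighbour was not counted in CpG-rich windows alone. The highest-scoring pair was ITPRIP with CFAP58, 55 bp apart, and next was HSPD1 with the HSPE1-MOB4 readthrough gene, 539 bp apart. PPP1R13L, an inhibitor of p53, shared a peak of score 848 with POLR1G, an RNA polymerase I subunit 283 bp away. KBTBD4 shared one of 537 with NDUFS3, a subunit of respiratory complex I 104 bp away.

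Several promoter peaks were rare: 69 of 2405 genes, 2.87%, had more than 1, of which 66 had 2 and 3 had 3. Together these held 141 peaks. In 43 of the 69 genes all neighbouring centres were less than 2000 bp apart, and in 26 at least 1 gap was wider. The median over genes of the widest gap was 1312 bp, and the peaks of 51 genes named different start sites. The stronger peak had at least 2 times the score of the next in 35 genes, and the median ratio was 2.07.

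The 3 genes with 3 promoter peaks were HNRNPF, STIP1 and TPM4. HNRNPF, a splicing regulator, had scores of 69, 23 and 83 on chromosome 10. STIP1, a co-chaperone that links HSP70 and HSP90, had even scores of 55, 54 and 47 within a short stretch of chromosome 11. TPM4, a tropomyosin, had 19, 69 and 44 on chromosome 19. Among genes with 2, WDR81, which acts in endosomal traffic, had 273 at 741 bp and 178 at 16 bp of another start. The peak at 741 bp did not include its assigned start. Of 196 promoter peaks centred more than 100 bp downstream, 135 lay in the promoter of another gene's transcript. LPIN1, a phosphatidate phosphatase regulated by mTOR, had 91 at -955 bp and 90 at -91 bp. LARP1, an RNA-binding protein that acts downstream of mTOR on ribosomal protein messages, had 80 at -43 bp of a start and 69 at -265 bp of another. The remaining 7 of the 10 genes with the highest second score were ARHGAP39, NAA38, PNPLA6, PLEC, WIZ, ZSCAN31 and E2F8, where the second score ran from 66 to 109.

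Genes with a promoter peak also had peaks elsewhere more often than other genes: 1006 of 2405, 41.8% (39.8 to 43.8%), had a peak outside the promoter class, and 5914 of 17576 genes without a promoter peak, 33.6% (32.9 to 34.4%), had any peak. Another peak lay within 10000 bp of 32.3% (30.5 to 34.2%) of promoter peaks and of 31.4% (30.8 to 32.1%) of the other peaks. These intervals overlap.

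By chromosome the promoter peaks were far from even. Over the 19970 protein-coding genes of the RefSeq table, 12% had a promoter peak. Chromosome 19 held 307 peaks, 12.4% (11.1 to 13.8%) of all promoter peaks, and 20.5% (18.4 to 22.6%) of its genes had one. Chromosome 17 was next with 17.2% (15.1 to 19.5%) of its genes. Chromosome 19 also had the most peaks of any kind, 1841 of 21440. Promoter peaks made up 16.7% (15 to 18.5%) of these, and 19% (16.7 to 21.4%) of the 1102 peaks of chromosome 17. The lowest autosome was chromosome 13 with 6.51% (4.12 to 9.69%). On chromosome X 16 of 848 genes had one, 1.89% (1.08 to 3.05%). Promoter peaks made up 11.2% (6.53 to 17.5%) of the peaks of X, against a median of 10.5% over the 22 autosomes, out of 143 peaks on X in all. The number of X copies in these cells and the mapping of reads there were not used here.

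On chromosome 19 the higher share was not restricted to its zinc finger genes. A promoter peak was found at 58 of 246 ZNF genes of chromosome 19, 23.6% (18.4 to 29.4%), and at 236 of 1205 other genes there, 19.6% (17.4 to 21.9%). Elsewhere the shares were 13.3% (9.41 to 18%) of ZNF genes and 11.3% (10.9 to 11.8%) of other genes. Scores differed less: the median was 64 (59 to 71) on chromosome 19 and 92 (37 to 147) over the 16 peaks of X. The highest of these 16 was at MORF4L2, a paralog of MORF4L1, with 237. OGT, the enzyme that adds N-acetylglucosamine to nuclear and cytoplasmic proteins, had 159, and the ribosomal protein gene RPL10 had the lowest X score, 17.

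**Figure D4:**
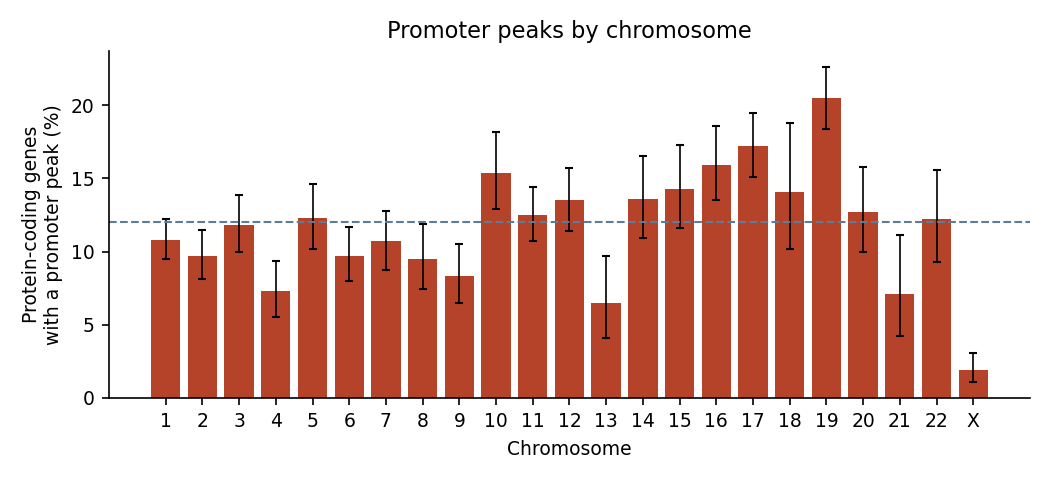
Share of protein-coding genes with a promoter peak in percent (y axis) by chromosome (x axis). Bars start at 0, error bars are exact 95% intervals and the dashed line is the 12% of all protein-coding genes; chromosome 19 stands at 20.5% and X at 1.89%.

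Gene families were defined by 35 patterns of gene symbols, and 650 promoter peaks fell in one of them. Against the 12% of all protein-coding genes with a promoter peak, the 95% interval of the family's share lay above in 13 families, below in 5 and held it in 17. Splicing factors of the SNRP and SF3 groups had a peak at 13 of 28 genes, 46.4% (27.5 to 66.1%), RNA helicases (DDX and DHX) at 21 of 53, 39.6% (26.5 to 54%), and RNA-binding regulators (HNRNP, SRSF and RBM) at 27 of 75, 36% (25.2 to 47.9%). Histone lysine methyltransferases and demethylases had one at 13 of 36, 36.1% (20.8 to 53.8%). Mitochondrial ribosomal proteins had 27 of 77, 35.1% (24.5 to 46.8%), and cytosolic ribosomal proteins 28 of 85, 32.9% (23.1 to 44%), where like-named paralogs are counted among the 85.

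RNA polymerase subunits followed with 32.3% (16.7 to 51.4%), then mitochondrial import proteins with 28% (12.1 to 49.4%), proteasome subunits with 27.1% (15.3 to 41.8%) and translation initiation factors with 25.5% (14.7 to 39%). The ubiquitin conjugation and removal family also had 25.5% (17.1 to 35.6%), chaperones had 21.7% (12.7 to 33.3%) and ZNF genes 18.2% (15 to 21.9%), a share whose interval held the background once chromosome 19 was left out. At the low end none of 392 olfactory receptor genes had a promoter peak (exact interval up to 0.937%). Keratins and keratin-associated proteins had 2 of 149, chemokines and interleukins 1 of 112, homeobox regulators 1 of 76, and the ADGR and GPR receptors 4 of 104. Solute carriers, with 38 of 383 or 9.92% (7.12 to 13.4%), were near the background. Expression and chromatin state of these genes in the cells were not used here, and their part in these shares was not tested.

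Score quartiles divided the families much as they divided all promoter peaks. In all 25 families with 10 or more promoter peaks the interval of the upper-quartile share held the 23.9% of all promoter peaks. The lowest share was 7.69% (0.195 to 36%) in the RAB, ARF and ARL small GTPases, and the highest was 54.5% (23.4 to 83.3%) in the WD40 repeat genes named WDR. The 95 ZNF peaks fell 25, 21, 24 and 25 from the lowest to the highest quartile. Cytosolic ribosomal protein peaks fell 6, 6, 8 and 8, with a median score of 69 (45 to 100), and mitochondrial ribosomal protein peaks fell 10, 7, 8 and 3, with a median of 56.5 (37 to 69). Solute carriers fell 12, 8, 6 and 14.

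**Figure D5:**
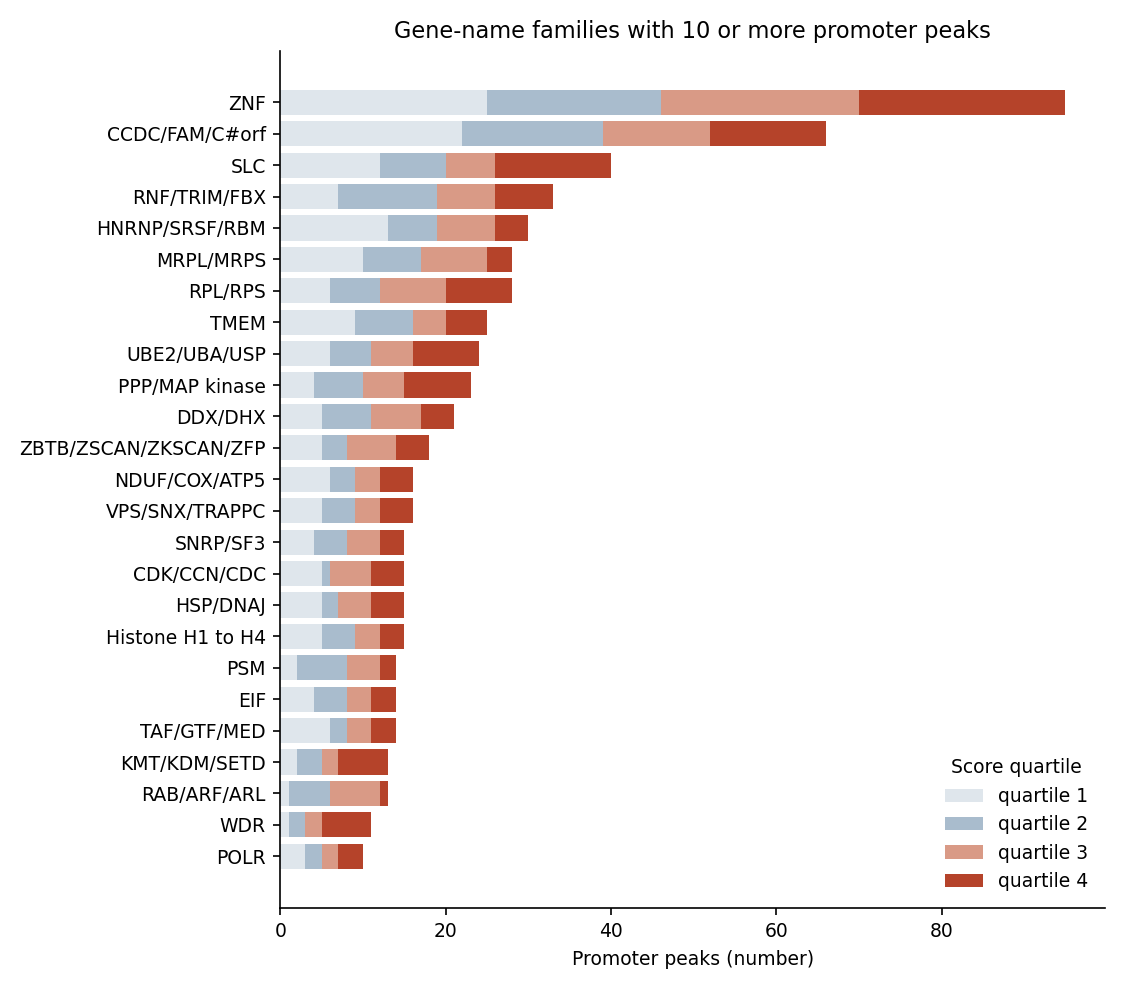
Number of promoter peaks (x axis) in each of the 25 gene-name families with 10 or more (y axis), stacked by score quartile with quartile 1 the lowest. Bars start at 0; ZNF genes have 95 peaks spread 25, 21, 24 and 25 over the quartiles, and mitochondrial ribosomal protein genes have 3 of 28 in the highest.

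Within families the range of scores was wide. Among cytosolic ribosomal proteins RPL26 had the highest score, 237, followed by RPS7 with 182 and RPS14 with 176, and RPL10 was lowest at 17. Among mitochondrial ribosomal proteins MRPL34 had both the highest score, 137 at 95 bp, and the lowest, 13 at -829 bp, from its 2 peaks, with MRPS17 at 125 and MRPS23 at 118. EIF4A2, an RNA helicase of translation initiation, led the initiation factors with 260. EIF4E, the cap-binding protein whose inhibitors mTOR phosphorylates, had 159 at -519 bp. EIF3B had 128 and EIF3M was lowest with 26.

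Chromatin and transcription genes spanned the list. KMT5B (2407), KDM3A (829 at -960 bp) and KMT2A (496) led the lysine methyltransferases and demethylases, and KDM8 was lowest at 31. RNA polymerase III subunits took the 3 top places among polymerase genes: POLR3E had 358, POLR3K 191 at 570 bp and POLR3F 158, and POLR2B of RNA polymerase II was lowest with 17. The POLR3K peak did not include the start of POLR3K. Peaks centred more than 100 bp downstream are listed under the named gene, but 135 of 196 such peaks lay in the promoter of another gene's transcript. GTF2H4 (353) and the TFIIIC subunit GTF3C5 (237 at 245 bp) led the general transcription machinery, where GTF2IRD1 was lowest at 23. In the ZNF family ZNF473 had 545 at 166 bp, ZNF114 had 532 and ZNF579 had 310, all on chromosome 19, and ZNF790 was lowest with 14.

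RNA and protein handling genes showed the same breadth, and the same limit holds for their peaks centred more than 100 bp downstream. DHX40 (529), DDX5 (296) and DDX39B (226 at 382 bp) led the RNA helicases. SF3A2 (280 at 358 bp) and SNRPB (251) led the splicing subunits, where SNRPG had 21, and RBM39 (315) and RBM23 (228 at 322 bp) led the RNA-binding regulators, where HNRNPC had 17. HSPD1 (1092), the heat-inducible HSPA6 (847) and HSPH1 (214) led the chaperones, and DNAJA3 had 15. PSMC3, an ATPase of the proteasome, had 404, PSMB3 had 201 at -877 bp and PSMB6 was lowest with 25. USP36, a nucleolar deubiquitinase, had 619 and the mitochondrial deubiquitinase USP30 had 358. Among mitochondrial import genes TIMM22 had 285 and TIMM44 had 16, and COX16 and COX19, of respiratory complex IV assembly, both had 237.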

How the data were processed

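An mTOR antibody enriched MDA-MB-231 chromatin, which was sequenced beside input as paired reads of 150 bp, per the labels' protocols. Trimmomatic 0.36, BWA 0.7.12, Picard 2.0.1, MACS2 2.1.1.20160309, HOMER 4.11.1 and hg38 are named per the submitters' processing notes. Not given in the sources used here are the peak threshold and what was done with duplicate or multiply aligned reads, each of which could change the peaks listed. Each peak's whole-number score is as the authors deposited it, and positions, classes, distances and gene names are theirs too.

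Offset is the deposited distance from centre to start, and a peak included the start when its span reached it. Quartiles are of the 2477 scores (37, 60 and 106), with ties in the lower class. Shares have exact Clopper-Pearson and medians exact order-statistic 95% intervals, and these were tested on simulated data together with the motif search. Genes and windows came from RefSeq tables of GRCh38.p14; all 2477 peaks matched the gene table, 2080 had a promoter entry and 1558 lay within 1 bp of the deposited distance. Named genes are the 15 highest, 5 lowest (by score, then name) and 5 widest peaks, genes with 3 peaks and the 10 with the highest second score, the peaks at both ends of the class, up to 3 highest and the lowest of each family with at least 5, and the 10 highest carriers of the composite element; not all of them are reported here. The peaks, families and motifs were chosen with earlier results of these data known. Alternatives were a score minimum, chromosome 19 left out, 2 other definitions of a promoter peak, a smaller window, the 10% highest scores and the highest-scoring peak of each gene. With 1 library there were no replicates, no batches to compare and no tests. Software was matplotlib 3.10.9, scipy 1.17.1, numpy 2.4.6, pandas 2.3.3 and Python 3.11.15.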

Additional observations from a re-analysis of the deposited data

How the results depend on the processing

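Of 118 recomputed values for 24 results, 70 stayed within the reported interval or, for counts of peaks and genes, within 1.5 times the reported count, 47 moved, and 1, the GC box ratio, changed direction. Restricting to peaks at or above the median score of all peaks (61) left 1228 promoter peaks with a median score of 106 and width of 540 bp, 76.5% upstream and 76.4% including the start. It left 13 genes with several, 6.05% of all protein-coding genes with a peak, 9.41% of ZNF, 18.8% of RPL/RPS, 14.3% of MRPL/MRPS and 4.96% of SLC genes, upper-quartile shares of 12.5% for RPL/RPS and 0% for MRPL/MRPS, and 10.1% with the composite element. Without chromosome 19, promoter peaks were 11.1% of peaks and lay at 11.3% of genes and at 13.3% (9.41 to 18%) of ZNF genes, an interval that then holds the background. Taking every protein-coding peak with a centre within 1 kb of the start gave 14.8% of peaks, a median offset of -48 bp, 57.8% upstream, 59% including the start, a median score of 54, 164 genes with several, 15% of genes and 23.5% of ZNF genes. Requiring the start inside the peak gave 7.74% of peaks, -52 bp, 66.3% upstream, a score of 69, a width of 481 bp, 18 genes with several, 8.18% of genes, 4.7% of SLC genes, and 9.85%, 26.2% and 70% with the composite element, ETS core and GC box. Top-tenth shares were 7.37% for ZNF, 3.57% for RPL/RPS, 0% for MRPL/MRPS and 15% for SLC. They count as moved because they were set against upper-quartile shares. Such a share is lower by construction, at 10% over all promoter peaks against 23.9% for the upper quartile. In the 250 upstream bases alone the ETS core was in 18.9% and the GC box in 70%. Changes of background, chosen after seeing the data, gave ratios of promoter peaks to start sites of 4.48 for the composite element (genes without a promoter peak), 1.31 (CpG-rich) and 1.63 (1 start per gene) for ETS, and 1.35 (genes without), 0.976 (CpG-rich, the change of direction) and 1.26 (1 start per gene) for the GC box. For the composite element the ratios of 3.05 (CpG-rich) and 2.83 (1 start per gene) did not count as moved. Changes of background were run only for the composite element, the ETS core and the GC box. Outside the 118 values, TATAAA, the NRF1 palindrome, the CCAAT box and TCCCA also changed side in CpG-rich windows, where their intervals overlapped. The first 3 restrictions change which peaks are counted, and no other cause of these moves was tested. A minimum score by construction raises the median score and lowers the counts. Keeping the highest-scoring peak of each gene moved none of the values it was run on, and neither did counting each start site once in the motif shares, an alternative also added after seeing the data. Leaving out repeat-labelled peaks could not be run, since the centre labels repeat the promoter class. No paired analysis was possible because there was 1 ChIP library without replicates. Library depth is unknown, so how many promoters lacked a peak for want of reads cannot be told.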

Other observations

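Messages whose translation depends strongly on mTOR begin with a C followed by a run of pyrimidines, the 5′ terminal oligopyrimidine (TOP) motif. Among the 1558 promoter peaks with a readable window, the annotated start was a C followed by 4 pyrimidines in 88, 5.65% (4.55 to 6.91%), against 1006 of 22131 protein-coding start sites, 4.55% (4.27 to 4.83%). Annotated starts need not be those used in these cells. In CpG-rich windows the shares were 5.79% (4.6 to 7.18%) at promoter peaks and 4.91% (4.5 to 5.35%) at genes without one, with overlapping intervals. From the lowest to the highest score quartile the shares were 6.59%, 3.88%, 5.84% and 6.08%. Among the 88 were HSPD1 with score 1092, HDAC2 with 335, SUMO2 with 322, SF3A2 with 280, EIF4A2 with 260, and the ribosomal protein genes RPL26, RPS14, RPL29, RPL14 and RPS13 with 237, 176, 144, 100 and 90. The other 6 of the 11 cytosolic ribosomal protein genes among the 88 had scores of 23 to 78. That family had 18 readable windows at promoter peaks. The share of such starts over all its start sites was not counted, so the 11 cannot be set against a background. The named genes were picked after their values were seen.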
